A study of Rattus norvegicus with 6 samples.

Results

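The insulin-like growth factor (IGF) axis was read from 10 genes of the deposited table of 33350 gene models: the ligand genes Igf1 and Igf2, the receptor genes Igf1r and Igf2r, the binding protein genes Igfbp2, Igfbp3, Igfbp4, Igfbp5 and Igfbp6, and the protease gene Pappa. Members were chosen by symbol, and each symbol had a single row, so that no measured value entered the choice of rows. The libraries came from rat cells labelled PC12, an adrenal pheochromocytoma line. In the 3 EC libraries the cells had been given exosomes (small membrane vesicles released by cells) of control endothelial cells, and in the 3 EN libraries exosomes of endothelial cells with high expression of netrin-1, a secreted guidance protein. All 6 libraries thus share an exosome treatment, and no library of cells without exosomes was analysed here. The sources used here give no dose, no duration and no origin of the endothelial cells. Nothing in the labels says that replicates were separate cultures, so p-values measure the spread between these libraries, which may be technical.

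IGF1 and IGF2 are secreted peptides related to insulin. Both act through the tyrosine kinase receptor encoded by Igf1r, which signals to the AKT and ERK kinases and supports growth and survival. The Igf2r product has no kinase: it takes up IGF2 for breakdown and carries mannose 6-phosphate-tagged enzymes to lysosomes. Binding proteins hold the ligands away from the receptor or store them near the cell, and the metalloprotease PAPP-A, encoded by Pappa, frees ligand by cutting IGFBP4 and IGFBP5. In peripheral nerve, IGFs are known to support Schwann cells and axon growth.

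Levels are given as FPKM, read numbers scaled by gene length and library size, and they can be compared between genes because they are per length. Read numbers worked back from the values came to between 15296193 and 19626012 per library, and the EN libraries were all deeper than the EC libraries. The share of reads on mitochondrial genes was 5.43% to 6.09% in EC and 4.40% to 5.50% in EN. The markers matched the label only in part. Of 14 chromaffin marker genes in the table, 3 reached a mean of 1 FPKM (Scg2 63.9, Slc18a2 4.39 and Th, tyrosine hydroxylase, 1.47), and Pnmt and Hand2 had no read. Of 13 Schwann and glial markers 10 reached it, led by S100b at 113.4, Ngfr at 107.1 and Sox10 at 103.6 FPKM, and Fabp7 had no read. Of 13 fibroblast and mesenchymal markers 5 reached it, led by Prrx1 at 127.9, Pdgfra at 64.8 and Twist1 at 43.4 FPKM, with Lum at 0. Of 12 endothelial markers 4 reached it, led by Egfl7 at 5.11, Flt1 at 3.64 and Tie1 at 1.73 FPKM, while Cdh5 stayed under 1 FPKM and Cldn5 and Robo4 had no read.

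The 10 genes spanned from a highly expressed receptor to a binding protein with no read. By mean over the 6 libraries the order was Igf2r (84.7 FPKM), Igfbp4 (24.7), Igf1r (8.38), Igfbp5 (2.64), Igf1 (1.42), Pappa (0.670), Igfbp6 (0.262), Igfbp2 (0.055), Igf2 (0.014) and Igfbp3 (0). Igf2r was higher than 97.1% of all gene models in the table. In EC the values of neighbours in this order overlapped for Igfbp5 and Igf1, and for each pair from Igfbp6 downward. In EN the Igfbp5 and Igf1 values no longer overlapped, while the pairs from Igfbp6 downward again did. All other neighbours were separate in both groups.

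Of the 5 binding protein genes 2 were higher in EN than in EC, and of the 2 ligand genes 1, Igf1, was lower. Igfbp4 was 1.80-fold higher in mean FPKM, Igfbp5 was 1.45-fold higher and Igf1 was 2.01-fold lower. Igf2r was 1.10-fold higher, and Igf1r did not pass the test. The other 5 members were under the minimum of 1 FPKM over the 6 libraries and were not tested. Of the 5 tested, 3 were higher and 1 was lower (limma on log2(FPKM + 1), Benjamini-Hochberg adjusted p under 0.05), where 14.4% of all 12198 genes tested passed, 7.24% higher and 7.14% lower. The groups did not overlap in the same 4, and they did not overlap in 37.9% of all genes tested. These counts describe the members and support nothing further, because the genes were proposed with results of these libraries known and Igf1 reached the minimum only through its EC level. The call for Igfbp4 held with each library left out in turn, whereas those for Igf1, Igf2r and Igfbp5 each held in 1 of 6 such fits. Over all genes the calls also fell, from 1754 to 338 without EC replicate 2 and 408 without EC replicate 3. They fell to 446 without EN replicate 1 and 344 without EN replicate 2. Igf1, Igf2r and Igfbp5 all lost their calls in those fits. The number over all genes was 1616 without EC replicate 1, where Igf2r lost its call. It was 2059 without EN replicate 3, where Igf1 and Igfbp5 lost theirs.

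**Figure D1:**
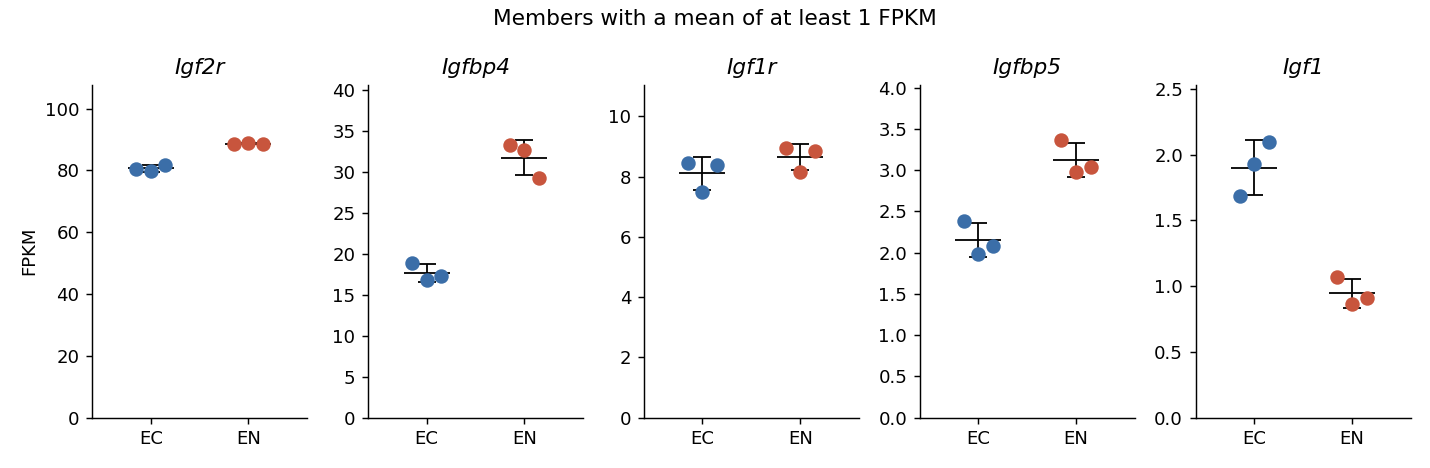
FPKM of the 5 members with a mean of at least 1 FPKM in each of the 3 EC and 3 EN libraries (points, replicates 1 to 3 from left to right), with mean and SD (bars) and a separate linear axis from 0 for each gene. The EN libraries lie above EC for Igf2r, Igfbp4 and Igfbp5 and below it for Igf1, and the groups overlap for Igf1r.

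The sequences before the starts of the 4 members that passed are shown because these genes moved in different directions. RefSeq windows of the GRCr8 assembly were found for 9 of the 10 members, and the 250 bases before the start are printed 5′ to 3′ on the gene's own strand, with motif matches in capitals. The Igfbp4 window is chr10:84491221-84491470 (plus strand), Igfbp5 is chr9:81914188-81914437 (minus strand), Igf1 is chr7:24172282-24172531 (plus strand) and Igf2r is chr1:50526628-50526877 (plus strand). These coordinates belong to GRCr8 and not to the build of the expression table. Igf1 is known to have more than 1 start region, and only this window was read.
Igfbp4: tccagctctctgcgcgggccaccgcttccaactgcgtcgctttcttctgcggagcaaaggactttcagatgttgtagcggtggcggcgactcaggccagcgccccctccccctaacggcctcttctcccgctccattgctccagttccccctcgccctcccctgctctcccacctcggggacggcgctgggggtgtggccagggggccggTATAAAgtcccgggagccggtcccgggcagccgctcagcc
Igfbp5: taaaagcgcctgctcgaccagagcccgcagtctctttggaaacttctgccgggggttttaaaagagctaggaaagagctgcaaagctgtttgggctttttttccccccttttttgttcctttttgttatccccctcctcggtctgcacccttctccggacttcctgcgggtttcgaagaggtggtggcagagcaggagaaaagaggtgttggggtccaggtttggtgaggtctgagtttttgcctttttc
Igf1: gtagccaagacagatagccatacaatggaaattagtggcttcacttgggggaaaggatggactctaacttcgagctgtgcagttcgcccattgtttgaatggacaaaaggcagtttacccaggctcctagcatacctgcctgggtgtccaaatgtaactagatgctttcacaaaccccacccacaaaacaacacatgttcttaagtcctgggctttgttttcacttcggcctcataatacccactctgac
Igf2r: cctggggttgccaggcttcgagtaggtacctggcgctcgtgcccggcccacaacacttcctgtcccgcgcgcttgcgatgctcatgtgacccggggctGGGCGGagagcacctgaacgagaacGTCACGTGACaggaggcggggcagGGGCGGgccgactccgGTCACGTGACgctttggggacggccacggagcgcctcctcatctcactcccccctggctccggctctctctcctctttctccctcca
The motifs, searched on both strands and chosen with the sequences in view, were the TATA box TATAAA, the E-box CACGTG, the GC box GGGCGG, the CCAAT box and the forkhead site TGTTTAC. The E-box was also searched with the 2 bases that flank it on each side in the Igf2r window, as GTCACGTGAC. Igfbp4 held TATAAA from 40 to 35 bases before the start, as did 12.9% of all 33469 windows of this length at any position. The Igf2r window held GTCACGTGAC at 127 to 118 and again at 87 to 78 bases before the start. That longer form was found in 0.203% of all windows, and 3 of the 33469 had it at least 2 times. The E-box alone was in 5.59% of windows, and at least 2 times in 0.430%. The letters of the longer form were read from the Igf2r window itself, so its share is a description and supports nothing further. The longer form is known as a site of the transcription factor TFEB in many lysosomal genes, and the Igf2r product sorts lysosomal enzymes. Igf2r also held the GC box 2 times, and 14.8% of windows held it at least that often. Igfbp5 and Igf1 held none of these motifs, which says only that these letters were not in these windows. GC content was 68.8% for Igfbp4, 68% for Igf2r, 51.6% for Igfbp5 and 46.8% for Igf1, against a median of 51.2% over all windows.

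Ligand transcripts were scarce. Igf1 (chromosome 7, 28412198 to 28486609 on Rnor_6.0) was at 1.68, 1.93 and 2.10 FPKM in EC replicates 1 to 3 and at 1.07, 0.861 and 0.909 in EN. Each EN library was thus below each EC library. The group means were 1.90 ± 0.206 and 0.946 ± 0.109 FPKM (SD, n = 3 each). On the log2(FPKM + 1) scale Igf1 changed by -0.58 (limma adjusted p = 0.031, SE 0.129). That scale understates the change of low genes: with a pseudocount of 0.1 the log2 change was -0.94, and with limma voom on whole reads it was -0.98 (adjusted p of 0.035 and 0.012). The values rest on 50, 56 and 65 reads in EC and 36, 33 and 29 in EN. Pooled by group they gave 1.63 to 2.21 FPKM in EC and 0.766 to 1.15 in EN as 95% exact Poisson intervals, which cover counting error only. The Poisson error of a single library, 0.238 to 0.260 FPKM in EC and up to 0.178 in EN, was above the SD of each group, so that the SDs understate the uncertainty. Leaving out EC replicate 2 ended the call (adjusted p = 0.105), as did leaving out EC replicate 3 (0.106), replicate 1 of EN (0.073), replicate 2 of EN (0.101) or replicate 3 of EN (0.051). Leaving out EC replicate 1 gave 0.043. Some Schwann and glial markers were lower in EN as well. Of 10 tested markers of that list 6 were lower and 1 was higher, against 7.14% and 7.24% of all genes tested, and 3 did not pass. The summed level was 477.8 to 486.6 FPKM in EC and 420.4 to 452.9 in EN. Among the lower markers S100b had the highest level, with means of 131.3 in EC and 95.4 in EN. Ngfr was the higher one (99.9 and 114.3), and Sox10 (102.5 and 104.8) and Erbb3 (47.0 and 47.7) did not pass. Their part in the Igf1 result was not tested, and in bulk RNA fewer cells of a type and less RNA per cell cannot be told apart.

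Igf2 (chromosome 1, 215828102 to 215846911), the growth factor of fetal tissues, had 3, 0 and 0 reads in EC and 3, 0 and 2 in EN. With 8 reads in all its mean was 0.014 FPKM, where 3 reads over the 6 libraries would give 0.0053 FPKM, and no difference was detectable at this depth. The 2 gene models that overlap Igf2 on its own strand, Mir483 among them, were listed at 0 in every library.

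Receptor transcripts outnumbered ligand transcripts per length. Igf2r (chromosome 1, 48176106 to 48264477) was at 80.5, 79.7 and 81.7 FPKM in EC and at 88.7, 88.8 and 88.7 in EN. Every EN value was above all EC values, at means of 88.7 ± 0.077 against 80.6 ± 1.02 FPKM (SD, n = 3 each). The log2 change was 0.14 (SE 0.031, limma adjusted p = 0.033), with a 95% interval of 0.062 to 0.21, and 52.9% of all tested genes had a smaller absolute change. Leaving out replicate 1, 2 or 3 of EC ended the call (adjusted p of 0.061, 0.127 and 0.086), and so did leaving out replicate 1 or 2 of EN (0.093 and 0.121), quantile normalization (0.055) and a fit with no variance trend (0.081). The EN values lay closer together than their counting error: the Poisson error of a single EN library was 0.712 to 0.781 FPKM, above the SD of 0.077, which thus understates the uncertainty. Pooled by group, the 95% exact Poisson intervals were 79.8 to 81.5 FPKM in EC (33051 reads) and 87.9 to 89.6 in EN (42080 reads). A small RNA model on the other strand, SNORA40, overlaps Igf2r, and no source used here says whether reads were counted by strand.

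Igf1r (chromosome 1, 128924966 to 129206516), the signalling receptor of both ligands, was at 8.46, 7.48 and 8.40 FPKM in EC and at 8.96, 8.14 and 8.85 in EN. The groups overlapped, with means of 8.11 ± 0.552 and 8.65 ± 0.443 FPKM (SD, n = 3 each). The log2 change of 0.08 did not pass (SE 0.070, limma adjusted p = 0.446), and its 95% interval of -0.082 to 0.25 allows changes from 0.945-fold to 1.19-fold on the log2(FPKM + 1) scale. Igf2r exceeded Igf1r 9.51 to 10.7 times in EC libraries and 9.90 to 10.9 times in EN libraries, ranges that overlap.

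Among the binding proteins, Igfbp4 and Igfbp5 were the tested members, and both were higher in EN. Igfbp4 (chromosome 10, 86950557 to 86962578) encodes a secreted inhibitor of IGF action that PAPP-A removes. Its transcript was at 18.9, 16.8 and 17.3 FPKM in EC and at 33.3, 32.6 and 29.3 in EN. The lowest EN library was 1.55 times the highest EC library. Means were 17.7 ± 1.08 and 31.7 ± 2.13 FPKM (SD, n = 3 each), and the log2 change was 0.81 (limma adjusted p = 0.00193, SE 0.066). It ranked 83 among increases and 34 by p-value among the 12198 genes tested. With 1 library left out the log2 change was 0.78 to 0.86 and the adjusted p 0.0031 to 0.018, and over all 16 alternatives the adjusted p was at most 0.018.

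Igfbp5 (chromosome 9, 80150211 to 80167033) encodes a binding protein that also attaches to extracellular matrix. It was at 2.39, 1.99 and 2.08 FPKM in EC and at 3.36, 2.98 and 3.04 in EN. The groups were separate, with means of 2.15 ± 0.210 and 3.13 ± 0.206 FPKM (SD, n = 3 each). The log2 change was 0.39 (SE 0.10, limma adjusted p = 0.047), close to the threshold. Leaving out replicate 2 or 3 of EC raised the adjusted p to 0.140 and 0.127, and leaving out replicate 1, 2 or 3 of EN to 0.140, 0.114 and 0.068. Leaving out replicate 1 of EC gave 0.0498, and a fit with no expression filter 0.096. With voom on whole reads, which rests on 589 EC and 988 EN reads, it was 0.0062 (log2 change 0.56).

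Levels of markers of other cell types beside these increases were as follows. Over all genes tested 14.4% passed, 7.24% as higher. None of 5 tested fibroblast and mesenchymal markers passed, and the summed level of that list was 235.7 to 238.7 FPKM in EC and 251.4 to 263.0 in EN. Of 4 tested endothelial markers, 1 (Egfl7) passed as higher, and the summed level was 10.02 to 12.1 FPKM in EC and 13.3 to 14.1 in EN. The chromaffin sum was 67.3 to 72.5 FPKM in EC and 68.4 to 73.9 in EN, with none of 3 tested genes past the test. A large part of each sum came from the highest gene of its list. These were Prrx1 (means of 121.1 FPKM in EC and 134.8 in EN), Egfl7 (4.12 and 6.09) and Scg2 (63.2 and 64.7). The part of these markers in the Igfbp4 and Igfbp5 results was not tested.

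**Figure D2:**
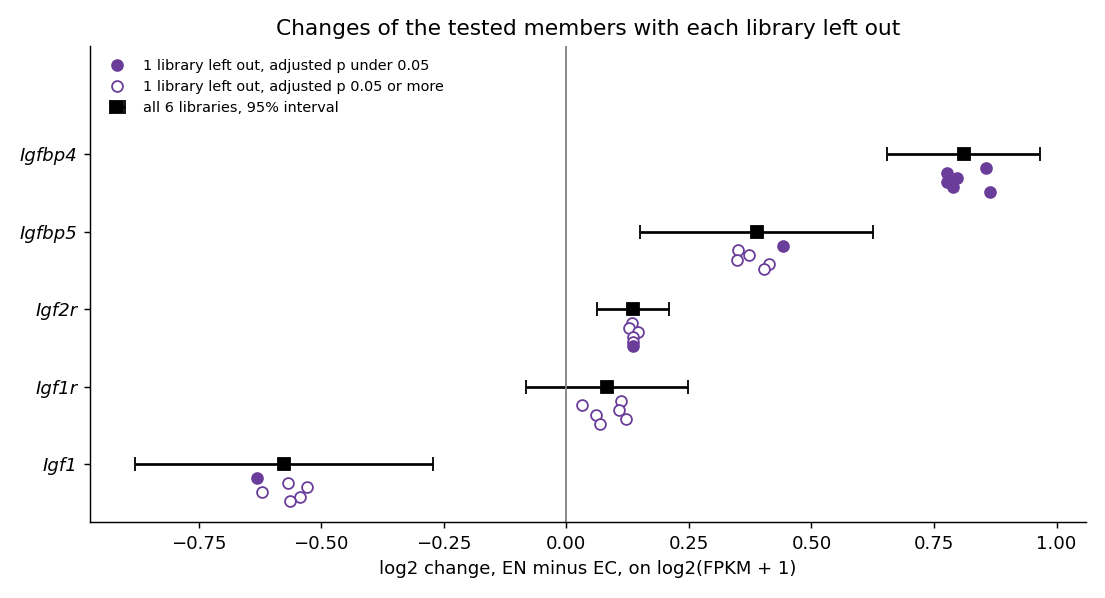
Log2 change of EN minus EC on the log2(FPKM + 1) scale for the 5 tested members, with all 6 libraries (squares, 95% interval) and with each library left out (circles, filled where the limma adjusted p was under 0.05). Igfbp4 has 6 filled circles at 0.78 to 0.86, Igfbp5, Igf2r and Igf1 have 1 each, and Igf1r has none.

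The 3 remaining binding protein genes were at or near 0. Igfbp6, whose product prefers IGF2, had 0, 8 and 9 reads in EC and 4, 6 and 1 in EN, or 0 to 0.522 FPKM and 0.056 to 0.282 FPKM, with overlapping groups. Igfbp2 had 2, 0 and 1 reads in EC and 3, 0 and 1 in EN. Igfbp3, the main carrier of IGFs in blood, had no read at all, so that its level was at most 0.012 FPKM in the 6 libraries together (3 reads). Neighbouring members differed widely in level. On chromosome 9, Igfbp2 and Igfbp5 face each other with 5.42 kb between their ends, and they had 7 and 1577 reads in all. On chromosome 14, Igfbp3 lies 3.86 kb from Igfbp1, a binding protein gene outside the member list, and neither had a read.

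Pappa (chromosome 5, 80920568 to 81150940) was at 0.591, 0.616 and 0.818 FPKM in EC and at 0.609, 0.613 and 0.772 in EN. The groups overlapped almost fully, with means of 0.675 ± 0.124 and 0.665 ± 0.093 FPKM (SD, n = 3 each). It was under the minimum for the test, and with no expression filter its log2 change was -0.0076 (limma adjusted p = 0.971). The protease transcript showed no difference beyond its spread in the libraries where the transcript of its substrate Igfbp4 was higher.

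**Figure D3:**
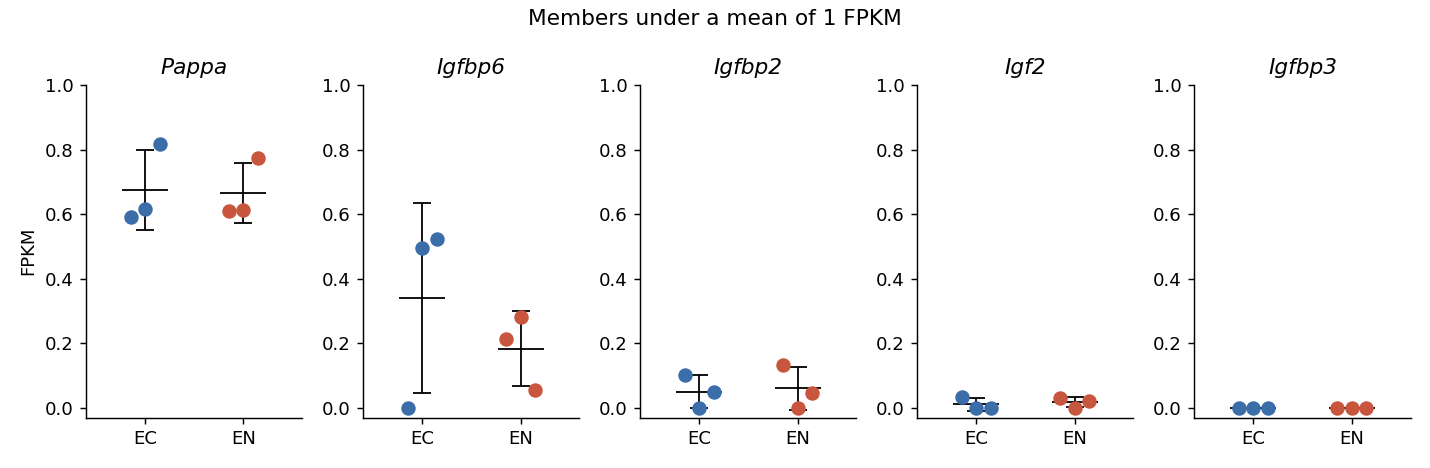
FPKM of the 5 members under a mean of 1 FPKM in each EC and EN library (points), with mean and SD (bars), on the same linear axis for all. Pappa lies between 0.591 and 0.818 FPKM in both groups, Igfbp6 between 0 and 0.522, and Igfbp3 is at 0 in every library.

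Sums and ratios of the members are given as a description with no test. The summed FPKM of the 5 binding protein genes was 19.3 to 21.4 in EC and 32.4 to 37.0 in EN, and Igfbp4 made up 86.7% to 88.3% of it in EC and 90.0% to 90.9% in EN. Igfbp4 exceeded Igf1 8.26 to 11.2 times in EC libraries and 31.1 to 37.9 times in EN libraries. It exceeded Igf1r 2.06 to 2.25 times in EC and 3.31 to 4.01 times in EN. The ratio of Igfbp5 to Igf1 was 0.995 to 1.42 in EC and 3.14 to 3.46 in EN. The sum leaves out Igfbp7, which is not a member and fell from a mean of 155.7 to 112.7 FPKM, by more than the members' sum rose.

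Over the 6 libraries the tested genes most like Igfbp4 were Rps10 (Pearson r = 0.9992 of log2(FPKM + 1)), Fiz1 (0.9991), Rpl27a (0.9990), Acy1 (0.9987) and Mybl2 (0.9985). All 5 are higher in each EN library than in each EC library, which comes with being picked for likeness to Igfbp4. The points share 2 groups and the library depths, and 451 genes had an r over 0.95, so the likeness describes these libraries only. The changes of these genes were smaller than that of Igfbp4, with log2 changes of 0.21 (Fiz1) to 0.44 (Acy1). Rps10 encodes a ribosomal protein, and a further model carries its symbol, which could split its reads.

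Other genes of the IGF pathway were read from 3 lists. Of the 85 genes found, 72 were tested: 7 passed as higher and 9 as lower, or 22.2%, against 14.4% of all genes tested. The split by direction depended on the scaling: 13 were higher and 9 lower with voom on whole reads, 10 and 8 on the TPM scale, and 9 and 8 with median centring. Their median log2 change was 0.0030, against -0.0028 over all genes tested.

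In the list of other ligands, binding proteins, proteases and processing enzymes, 1 of 12 tested genes passed as higher and 1 as lower, and 10 missed the threshold. That is 16.7%, near the 14.4% of all genes tested, and the median log2 change was 0.03. Igfbp7, whose product binds IGFs weakly, was at 162.3, 159.4 and 145.3 FPKM in EC and at 122.9, 113.6 and 101.7 in EN. It was thus expressed above Igfbp4 and moved the other way, falling by 0.46 on the log2 scale (limma adjusted p = 0.015, SE 0.076). The Igfbp7 call was lost without EC replicate 2 (adjusted p = 0.063) or EN replicate 2 (0.056), and Polr2b and Rpl39 overlap it on the other strand. Furin, a convertase that cuts the IGF1 receptor precursor, went from 39.3 ± 2.03 to 46.8 ± 1.19 FPKM (SD, n = 3 each; adjusted p = 0.022, lost without EC replicate 2 or 3 or EN replicate 1 or 2, with at most 0.082). The PAPP-A inhibitor genes Stc1 and Stc2 had log2 changes of 0.24 and 0.17 and did not pass. Htra1, a protease that cuts binding proteins, was at 256.6 ± 3.74 and 264.6 ± 7.29 FPKM and the insulin receptor gene Insr at 13.3 ± 0.304 and 14.0 ± 0.717, and neither passed. The insulin genes Ins1 and Ins2 had no read, and Pappa2 stayed between 0.156 and 0.443 FPKM.

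In the list of mannose 6-phosphate sorting genes, which serve the other role of Igf2r, 2 of 12 tested genes passed, both lower. That is 16.7%, near the 14.4% of all genes tested, and the median log2 change was -0.03. The lower ones, Vps29 and Vps35, encode subunits of the retromer coat that returns cargo from endosomes. Vps29 went from 79.6 ± 0.538 to 69.6 ± 1.55 FPKM and Vps35 from 142.1 ± 5.94 to 123.3 ± 6.03 (SD, n = 3 each), with limma adjusted p of 0.018 and 0.039. Both calls were lost without EC replicate 2 or 3 or EN replicate 1 or 2, where the adjusted p reached 0.071 for Vps29 and 0.129 for Vps35. Vps35 also lost its call with no expression filter, with quantile normalization and without the variance trend (adjusted p of 0.075, 0.061 and 0.077). M6pr, the smaller mannose 6-phosphate receptor gene, was at 8.33 ± 1.17 and 8.48 ± 2.50 FPKM.

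In the list of receptor signalling genes, 12 of 48 tested genes passed, 6 in each direction. That is 25%, against 14.4% of all genes tested, and the median log2 change was -0.03. With voom on whole reads 11 were higher and 6 lower, on the TPM scale 9 and 5, and with median centring 8 and 5. Socs3, a feedback inhibitor of cytokine and insulin signalling, averaged 19.6 ± 2.42 FPKM in EC against 34.6 ± 4.22 in EN (n = 3 each, SD), a change of 0.79 on the log2 scale (limma adjusted p = 0.0092). Map2k2 (MEK2) went from 74.2 ± 0.514 to 90.1 ± 1.75 FPKM and Akt1 from 201.1 ± 12.0 to 248.5 ± 3.71. Grb14, an adaptor that dampens insulin receptor signalling, went from 44.1 ± 2.94 to 33.9 ± 1.65 FPKM. The calls for Socs3 and Map2k2 held with each library left out. Akt1 lost its call with EC replicate 2 or EN replicate 1 or 2 left out (adjusted p of at most 0.061), and Grb14 with EN replicate 2 left out (0.062). The receptor substrates Irs1 and Irs2 had log2 changes of -0.02 and 0.0056 and did not pass, and Irs4 had no read.

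**Figure D4:**
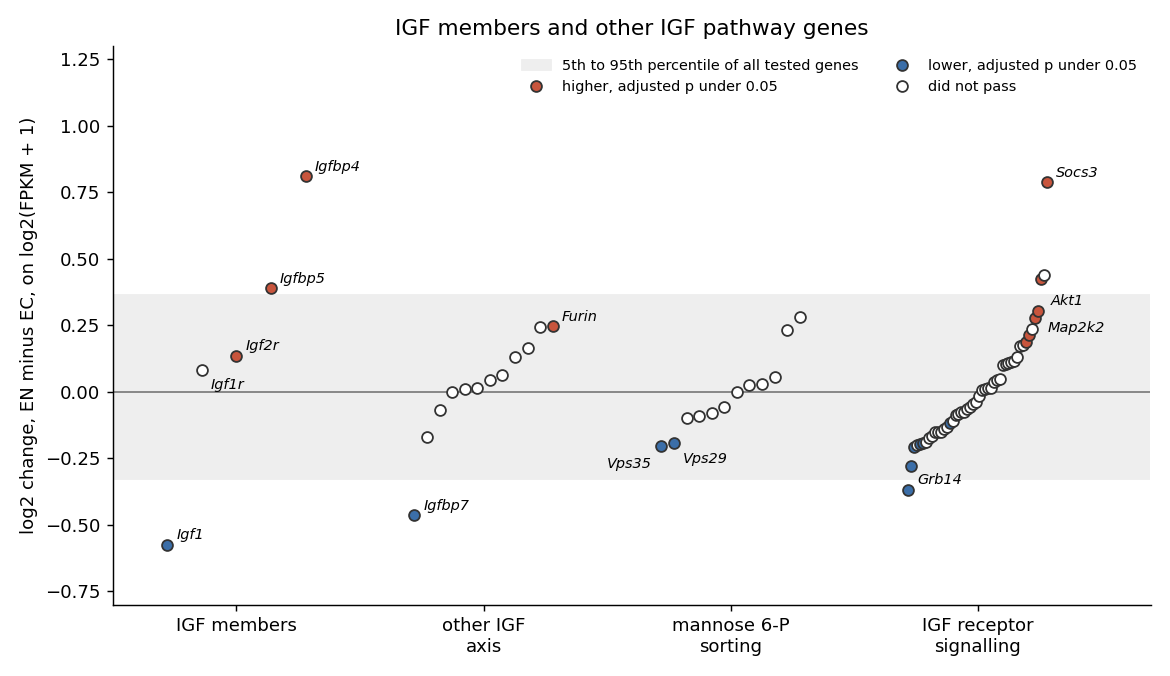
Log2 change of EN minus EC on the log2(FPKM + 1) scale for each tested gene of the 10 members and of the 3 other pathway lists, ordered by change within a list, over the 5th to 95th percentile of all tested genes (grey band, -0.33 to 0.36). Igfbp4, Igfbp5 and Igf1 lie outside the band among the members, as do Igfbp7 and Grb14 (below) and Socs3, Socs1 and Eif4ebp1 (above) among the other genes, of which Eif4ebp1 did not pass the test (adjusted p = 0.061).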

How the data were processed

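RNA was sequenced from 6 libraries labelled PC12, 3 EC and 3 EN. The authors deposited FPKM per gene model with symbols, Rnor_6.0 coordinates and lengths. HISAT2 2.0.5 and that build are named in the submitters' processing notes. These sources give no counting tool, annotation release or strand setting.

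Whole reads were recovered by dividing FPKM times length by a step found for each library (100% of non-zero values came out whole within 0.001). Intervals and limits from reads (a floor of 3 reads) cover counting error only.

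limma 3.58.1 in R 4.3.3 was fitted to log2(FPKM + 1) with a variance trend, for 12198 genes that averaged 1 FPKM or more, as a two-sided test with no term besides group. The fit was also run on simulated data in which only genes of at least 5 FPKM were changed. The spread beyond counting error was set equal for all genes and was not estimated from these libraries, so no call rests on that run. That run does not cover changes at the levels of Igf1 and Igfbp5 or as small as that of Igf2r. Alternatives were pseudocounts of 0.1 and 0.5, no filter or 5 FPKM, TPM scaling, median centring, quantile normalization, a replicate block, no variance trend, voom on whole reads, and each library left out. The check for outlying samples needs 4 per group and was not made.

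Members and lists were chosen with earlier results of these data known. Of 87 pathway entries 85 were in the table. Named are all members, up to 4 genes past the threshold with the smallest adjusted p of each pathway list, the 3 highest genes of each marker list and the 5 genes most like Igfbp4. Others, such as Stc1, Stc2, Htra1, Insr, M6pr, Irs1, Irs2, Cdh5, Pappa2 and genes at 0, were named after their values were seen. H19, Ap1g1, Insm1, Foxd3 and Pecam1 were not analysed here. Promoter windows came from RefSeq (GRCr8), without the part after the start.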

Additional observations from a re-analysis of the deposited data

How the results depend on the processing

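None of the 13 single-gene changes examined, 5 of members and 8 of pathway genes, turned direction under any alternative. Of 78 member values under the alternatives 58 kept their side of the threshold and 20 lost the call, and of 128 values of the pathway genes 107 kept it and 21 lost it. All 20 lost member calls were of Igf1, Igf2r and Igfbp5, and the 58 include every value of Igf1r, which had no call to lose. The number of all genes past the test went from 1754 to 866 with no expression filter and to 1019 without the variance trend, it was 2347 with voom on whole reads (1387 higher and 960 lower, against 883 and 871), and it was 338 to 2059 with 1 library left out. The number of members past the test, 4 with all libraries, was 2 with a minimum of 5 FPKM, where 3 members were tested, and 1 to 3 with 1 library left out. The number of other pathway genes past the test went from 16 to 8 with no filter and to 9 without the trend, and it was 2 to 21 with 1 library left out. With the replicate number as a block, 2 members passed, Igfbp4 and Igf2r, with adjusted p of 0.0082 and 0.048, against 0.063 for Igf1 and 0.062 for Igfbp5, while the count of all genes was 1907 and that of other pathway genes 21 (11 higher and 10 lower, against 7 and 9). Whether the numbers pair the libraries is not settled. Deviations of same-numbered libraries correlated at 0.088, -0.095 and -0.020, and those of other pairs at -0.111 to 0.134. With 3 libraries per group these values cannot decide it. The cause of the differences between the fits was not tested. Depth limits Igf2, Igfbp2, Igfbp3 and Igfbp6, with 8, 7, 0 and 28 reads in all.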
